A study of Mus musculus with 6 samples.

Results

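The values described here are those of 40 mouse genes that encode interferon-stimulated effectors outside the large IFIT, OAS, GBP, IRG, p200 and PARP families. The set is a list of gene names, grouped here by what the products do, and makes up 40 of the 55335 identifiers in the expression table. Bulk RNA-seq was available for 6 libraries of bone marrow-derived macrophages (BMDMs), which are macrophages grown from *Cd177* WT marrow in M-CSF. In 3 libraries the BMDMs had shared a culture for 24 h with neutrophils of *Cd177* WT mice, and in the other 3 with neutrophils of *Cd177* KO (*Cd177*-/-) mice. In both cases the neutrophils came from the spinal cord injury (SCI) lesion at 3 dpi and were isolated by magnetic sorting. The paper names flow-sorted BMDMs for other assays of this co-culture, but its RNA-seq methods do not describe a sort before RNA extraction. The study used adult male mice, and its methods name C57BL/6 as the strain of those bought from a university facility. They state no strain for the *Cd177*-/- mice, which were bought from a company. All 6 libraries therefore held macrophages exposed to lesion neutrophils, and no library of BMDMs without neutrophils was analysed here. The comparison asks how macrophage transcripts differ with the *Cd177* genotype of the neutrophils beside them.

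Type I interferon binds a receptor that activates JAK kinases, and these phosphorylate transcription factors such as STAT2. With IRF9 these form a complex that binds the interferon-stimulated response element (ISRE) in the promoters of its target genes. The effectors described below include ISG15, a ubiquitin-like protein that is conjugated to other proteins, the enzymes that attach and remove it, and proteins that hinder viral entry, nucleic acid synthesis or budding. Macrophages carry out this programme strongly, and several of its products also restrain the signal that induced them.

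The ISRE core, a pair of GAAA separated by 2 bases of any kind, on either strand, was searched in the RefSeq promoter windows of build GRCm38.p6, each running from 250 bases before to 50 after a transcript start. Of the 40 genes, 34 had a window, and 13 of these (38.2%) held the core, against 3.99% of all 27025 genes with windows. The 4 stretches of 150 bases that follow belong to the genes with the deepest falls among those with the core. They are written 5′ to 3′ on the strand of the gene, ending at the base before the start, with the core in capitals. They lie at chr12:26456453-26456602 (*Rsad2*), chr4:156200819-156200968 (*Isg15*), chr7:104507850-104507999 (*Trim30d*) and chr7:104465194-104465343 (*Trim30a*), all on the minus strand.
Rsad2: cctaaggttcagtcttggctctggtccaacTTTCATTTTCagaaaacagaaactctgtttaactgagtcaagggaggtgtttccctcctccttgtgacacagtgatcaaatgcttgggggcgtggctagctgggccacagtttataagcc
Isg15: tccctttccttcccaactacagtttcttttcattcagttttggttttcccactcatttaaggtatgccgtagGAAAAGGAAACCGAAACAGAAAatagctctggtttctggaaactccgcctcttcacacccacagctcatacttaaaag
Trim30d: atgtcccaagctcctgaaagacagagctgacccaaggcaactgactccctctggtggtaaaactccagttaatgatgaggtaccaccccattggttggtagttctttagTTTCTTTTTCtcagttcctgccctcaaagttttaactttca
Trim30a: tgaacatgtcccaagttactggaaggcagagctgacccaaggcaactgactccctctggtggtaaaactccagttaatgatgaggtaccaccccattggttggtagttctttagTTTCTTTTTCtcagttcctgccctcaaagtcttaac

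*Isg15* held 3 overlapping copies of the core, from 78 to 57 bases before the start. *Rsad2* held 1 core, on the opposite strand, 120 to 111 bases before the start. The stretches of *Trim30a* and *Trim30d*, which neighbour each other on chromosome 7, shared an unbroken run of 118 bases that includes the core. A further 3 sites are shown because 3 abundant membrane proteins carried the core in different places while their fold changes differed in sign, a choice made after their values were seen. They lie on the minus strand at chr8:71537580-71537609 (*Bst2*), chr7:140955988-140956017 (*Ifitm2*) and chr7:141010715-141010744 (*Ifitm3*).
Bst2: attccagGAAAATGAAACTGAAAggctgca
Ifitm2: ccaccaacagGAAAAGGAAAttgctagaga
Ifitm3: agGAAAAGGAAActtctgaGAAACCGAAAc

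The first letter of the *Ifitm3* site is the first transcribed base, so its pair of cores lay after the start, whereas the single core of *Ifitm2* lay before it. A match is a description of these letters and not evidence of a bound factor. The GAS-like sequence TTCNNNGAA, which resembles the gamma-interferon activation site and is its own reverse complement, was present in 5 of the 34 genes (14.7%) against 9.55% of all genes. It overlapped the first core of *Bst2* and reached into the second core of *Ifitm3*. *Usp18*, *Mx1*, *Mx2*, *Rtp4*, *Tor3a* and *Ifi27* had no window in the table used.

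**Figure D1:**
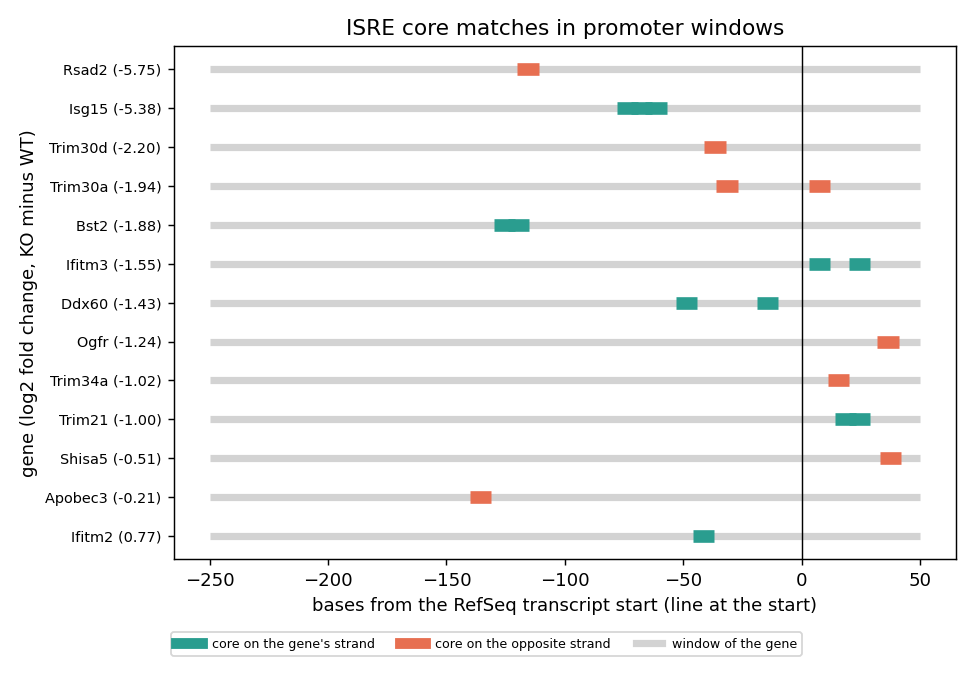
Positions of ISRE core matches (coloured bars, by strand) along the promoter windows (grey) of the 13 genes that held 1, in bases from the RefSeq transcript start (x axis). Genes are ordered by log2 fold change (in brackets), from *Rsad2* at -5.75 to *Ifitm2* at 0.77, and windows of different starts of 1 gene are drawn on 1 line.

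The label of the neutrophil genotype was checked first on *Cd177* itself. The table listed *Cd177* at 0.544, 0.309 and 0.521 FPKM in the WT-labelled columns and at 1.79, 1.84 and 2.28 FPKM in the KO-labelled columns. *Cd177* transcript was thus higher and not lower where the neutrophils were labelled knockout (log2 fold change 1.37, adjusted p = 0.000827, limma with Benjamini-Hochberg adjustment). The paper gives the sequenced RNA as that of the BMDMs, which came from *Cd177* WT mice. It reports low *Cd177* expression in macrophages and microglia. Neutrophil marker transcripts were also listed in these libraries, most of them higher in the KO-labelled ones. Which cells gave the *Cd177* transcript cannot be told in bulk samples, so it does not settle the genotype of the neutrophils. The libraries are called WT-labelled and KO-labelled below, and every direction rests on those labels. The labels do not say whether the 3 libraries of a group came from separate cultures or animals, so p-values measure the spread between these libraries, which may be technical.

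The table held FPKM, fragment counts scaled to transcript length and to the mapped total of the library, which allows levels to be compared between genes. The depth behind the values is unknown, since whole reads could not be recovered from them. The 9 macrophage markers summed to 6657 to 8017 FPKM in the WT-labelled and 7454 to 8130 FPKM in the KO-labelled libraries. Most of it was *Lyz2*, so the sum mainly reflects that gene. Single markers moved apart, since *Cd14* (log2 fold change -3.33) and *Fcgr1* (-1.83) fell while *Mrc1* (2.96) and *Mertk* (0.72) were among the 3 that rose, and 4 of the 9 were not called. Of 16 neutrophil markers, 14 were higher in every KO-labelled than in every WT-labelled library. This held for 37.5% of all tested genes, those averaging 0.5 FPKM or more. *Mmp8* ran the other way (log2 fold change -1.12, adjusted p = 0.000359, limma), and the groups overlapped for *Elane*. The neutrophil markers summed to 202 to 262 against 558 to 572 FPKM. *Ly6g*, which defines the lineage, was listed at 0 in the WT-labelled and at 0.403 to 0.660 FPKM in the KO-labelled libraries. Being low, *Ly6g*, *Mpo*, *Elane* and *Prtn3* were not tested. B cell markers summed to 0.711 to 1.35 against 13.1 to 15.4 FPKM, and T and NK cell markers to 1.95 to 2.46 against 5.62 to 7.26 FPKM with *Cd3d* at 0. Markers of spinal cord cells summed to 15.9 to 18.3 against 20.1 to 21.9 FPKM, with *Aqp4*, *Mog* and *Snap25* at 0. Those of endothelial cells and fibroblasts summed to 345 to 510 against 452 to 511 FPKM, nearly all of it *Col1a1* and *Col1a2*. Of the 5 genes tested in that list, *Kdr* was lower (log2 fold change -1.03, adjusted p = 0.0049, limma) and 4 were not called. Fewer cells of a type and less RNA per cell cannot be told apart in bulk samples, and the part that other cells had in the differences below was not tested.

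Most of the effectors were lower in the KO-labelled libraries, and several were close to lost. All 40 passed the filter on low genes (an average of 0.5 FPKM or more across the 6 libraries), and 35 of them fell in the KO-labelled libraries while 1, *Ifi27*, rose (adjusted p under 0.05, limma with Benjamini-Hochberg adjustment over 13367 genes). Of all tested genes, 10.5% were lower and 27.1% higher by the same rule (1408 and 3619 genes, or 2215 and 2156 with median-of-ratios scaling, under which 37 of the 40 genes fell and 1 rose). Not called were *Pml*, *Apobec3*, *Ifitm1* and *Ifitm2*. The median log2 fold change, KO minus WT on the log2(FPKM + 0.5) scale, was -1.65 over the 40 genes and 0.19 over all tested genes. The 35 called genes were also lower in every KO-labelled than in every WT-labelled library, which held for 14.4% of all tested genes. Both *Ifi27* and *Ifitm2* were higher in every KO-labelled library, as were 37.5% of all tested genes, and the groups overlapped for *Pml*, *Apobec3* and *Ifitm1*. By the threshold of the study, a fold change above 2 with an unadjusted p under 0.05, 31 of the 40 genes were lower, against 4.43% of all tested genes. *Ifi27* rose by less than 2-fold and did not meet that threshold, which 6.68% of all tested genes met in the higher direction.

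The depth of the fall varied widely within the set. Falls of more than 2-fold were found for 31 genes, against 4.32% of all tested genes, of more than 4-fold for 14, against 1.44%, and of more than 8-fold for 8, against 0.636%. The residual level, defined as the KO-labelled mean as a percent of the WT-labelled mean on FPKM, had a median of 29.4%. It was under 5% for 6 genes (*Rsad2*, *Cmpk2*, *Mx1*, *Isg15*, *Usp18* and *Ifi44*), 5 to 25% for 8, 25 to 50% for 17, 50 to 100% for 6 and above 100% for 3. When the 40 genes were ranked by log2 fold change, the 95% intervals of neighbours overlapped in 37 of 39 pairs. The exceptions were *Cmpk2* followed by *Mx1*, and *Usp18* followed by *Ifi44*. Both gaps narrowed with a smaller pseudocount, which understates the fall of low genes less. With a pseudocount of 0.1 the log2 fold changes were -5.69 for *Cmpk2* against -5.30 for *Mx1*, and -4.79 for *Usp18* against -4.43 for *Ifi44*. On FPKM itself the means of *Mx1* and *Isg15* were 45.5-fold and 45.4-fold lower, and those of *Usp18* and *Ifi44* 30.1-fold and 28.7-fold lower.

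**Figure D2:**
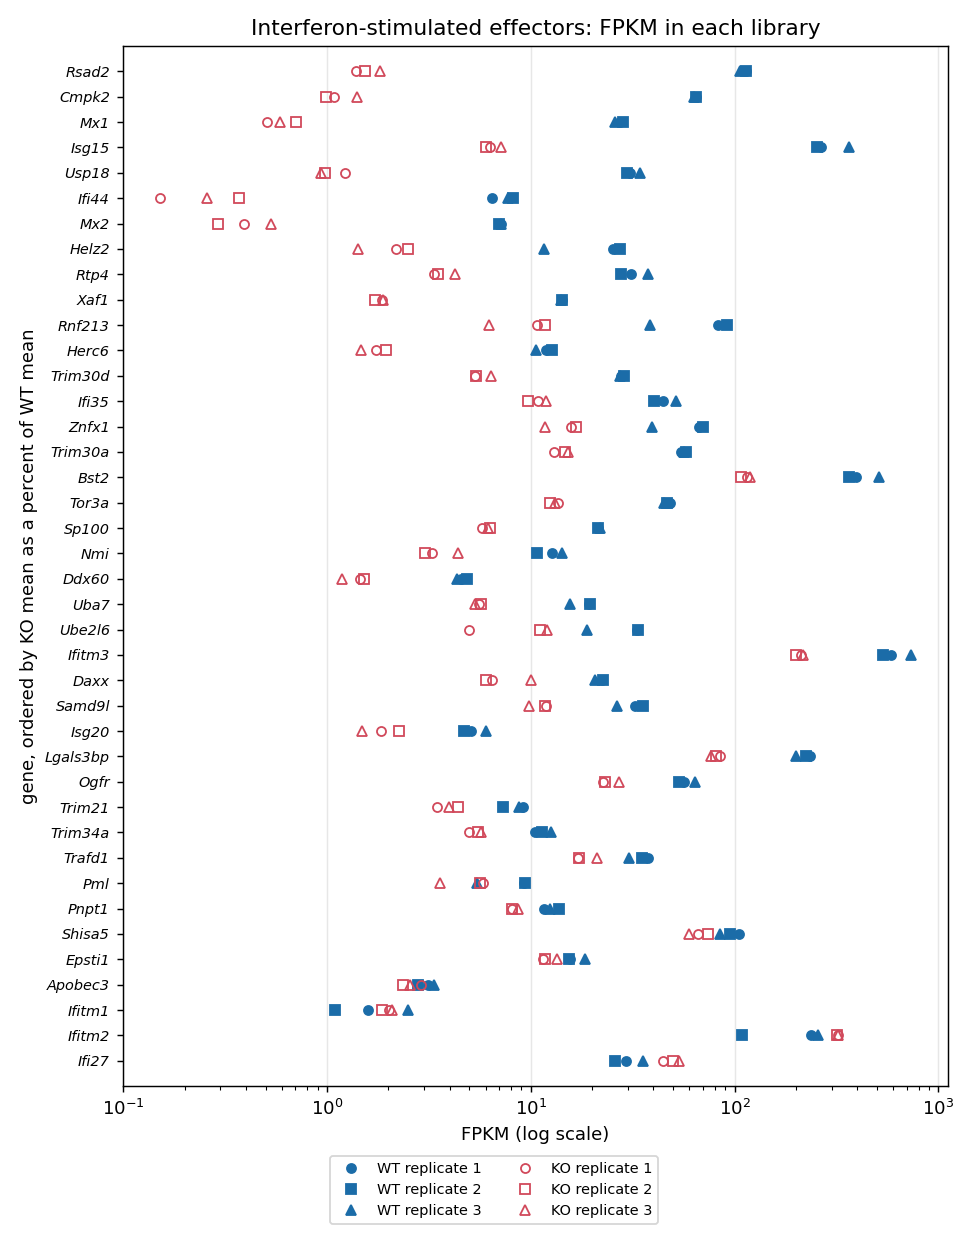
FPKM (x axis, log scale) of each of the 40 genes in the 3 WT-labelled (filled blue) and 3 KO-labelled (open red) libraries, ordered by residual level from *Rsad2* (1.42%) to *Ifi27* (162%). Symbols mark the replicate number; the groups overlap only for *Pml*, *Apobec3* and *Ifitm1*.

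The counts by class below stand against the 10.5% of all tested genes that fell. The 5 genes of ISG15 conjugation all fell, with a median log2 fold change of -2.47. *Isg15* (chr4:156199424-156200818, minus strand, GRCm38), the modifier itself, was measured at 266, 253 and 366 FPKM in the WT-labelled libraries and at 6.33, 6.04 and 7.12 FPKM in the KO-labelled libraries. The groups were far apart, and 2.20% of the WT-labelled level remained (295 ± 61.4 against 6.49 ± 0.559 FPKM, SD, n = 3 each). The log2 fold change was -5.38 (SE 0.15, adjusted p = 2.38e-06, limma). *Usp18*, the protease that removes ISG15 and also damps signalling at the interferon receptor, was at 30.7, 29.8 and 34.2 FPKM against 1.23, 0.980 and 0.934 FPKM. Its residual level was 3.32%, so the modifier and its protease were both almost lost.

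The enzymes of the conjugation cascade kept more of their transcript. *Uba7*, the activating enzyme, was at 19.4, 19.5 and 15.7 FPKM against 5.56, 5.73 and 5.34 FPKM (residual 30.5%). *Ube2l6*, the conjugating enzyme, had the smallest fall of the 5, with 33.2, 33.6 and 18.8 FPKM against 5.0, 11.1 and 12.0 FPKM. Its log2 fold change was -1.60 (SE 0.36, adjusted p = 0.0140, limma), the groups were uneven within themselves, and without WT replicate 1 the call was lost (adjusted p = 0.0502). *Herc6*, the main ISG15 ligase in the mouse, was at 11.9, 12.8 and 10.6 FPKM against 1.75, 1.94 and 1.46 FPKM (residual 14.6%). The ratio of *Uba7* to *Isg15* within a library was 0.0428 to 0.0770 in the WT-labelled and 0.751 to 0.949 in the KO-labelled libraries, so the transcript of the enzyme came close to that of the modifier. *Usp18* over *Isg15* moved much less, from 0.0936 to 0.117 up to 0.131 to 0.195.

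Of the 9 effectors that act on nucleotides, RNA and DNA, 8 fell and *Apobec3* was not called, with a median log2 fold change of -1.46. *Rsad2* (chr12:26442746-26456452, minus strand, GRCm38) encodes viperin, a radical SAM enzyme that turns CTP into a chain-terminating nucleotide. It had the deepest fall of the 40 genes, with 113, 114 and 106 FPKM in the WT-labelled against 1.39, 1.53 and 1.81 FPKM in the KO-labelled libraries. This was a 70.5-fold lower mean (log2 fold change -5.75, SE 0.10, adjusted p = 5.1e-07, limma). *Cmpk2* encodes a mitochondrial nucleotide kinase that can supply CTP, and it starts 12752 bases from *Rsad2* on the opposite strand. It was at 64.5, 64.7 and 63.4 FPKM against 1.09, 0.988 and 1.41 FPKM, a 55.3-fold lower mean. The pair kept a similar proportion, with *Rsad2* over *Cmpk2* at 1.68 to 1.76 in the WT-labelled and 1.27 to 1.55 in the KO-labelled libraries.

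The helicases and related large proteins of this class fell by less. *Helz2*, a helicase and nuclear receptor coactivator, was at 25.4, 27.4 and 11.7 FPKM against 2.19, 2.50 and 1.42 FPKM (residual 9.48%). *Znfx1*, a helicase that senses viral RNA at mitochondria, was at 66.7, 70.1 and 39.3 FPKM against 15.8, 16.6 and 11.7 FPKM (residual 25.0%). In both genes replicate 3 was the lowest library of its group, and the groups did not overlap. *Zfas1* (mean 9.78 FPKM) lies opposite *Znfx1*, and without a stated strand setting reads of such a pair cannot be told apart. *Ddx60*, a helicase linked to RNA sensing, had a residual level of 30.2%, from a low 4.59 ± 0.274 FPKM (SD, n = 3) in the WT-labelled libraries. *Samd9l*, which restricts translation during infection, retained 35.3% and *Isg20*, an exonuclease that degrades RNA, retained 35.4%.

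Far smaller differences were found at the other end of this class. *Pnpt1*, a polynucleotide phosphorylase that acts mainly in mitochondria, was at 11.7, 13.7 and 12.4 FPKM against 8.08, 8.07 and 8.66 FPKM, and it fell to 65.7% of the WT-labelled level (log2 fold change -0.57, adjusted p = 0.00353, limma). *Apobec3*, a cytidine deaminase that restricts retroviruses, was at 3.13, 2.79 and 3.34 FPKM against 2.89, 2.37 and 2.55 FPKM. The groups overlapped, and the log2 fold change of -0.21 (95% interval -0.48 to 0.06, adjusted p = 0.196, limma) did not pass the test.

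**Figure D3:**
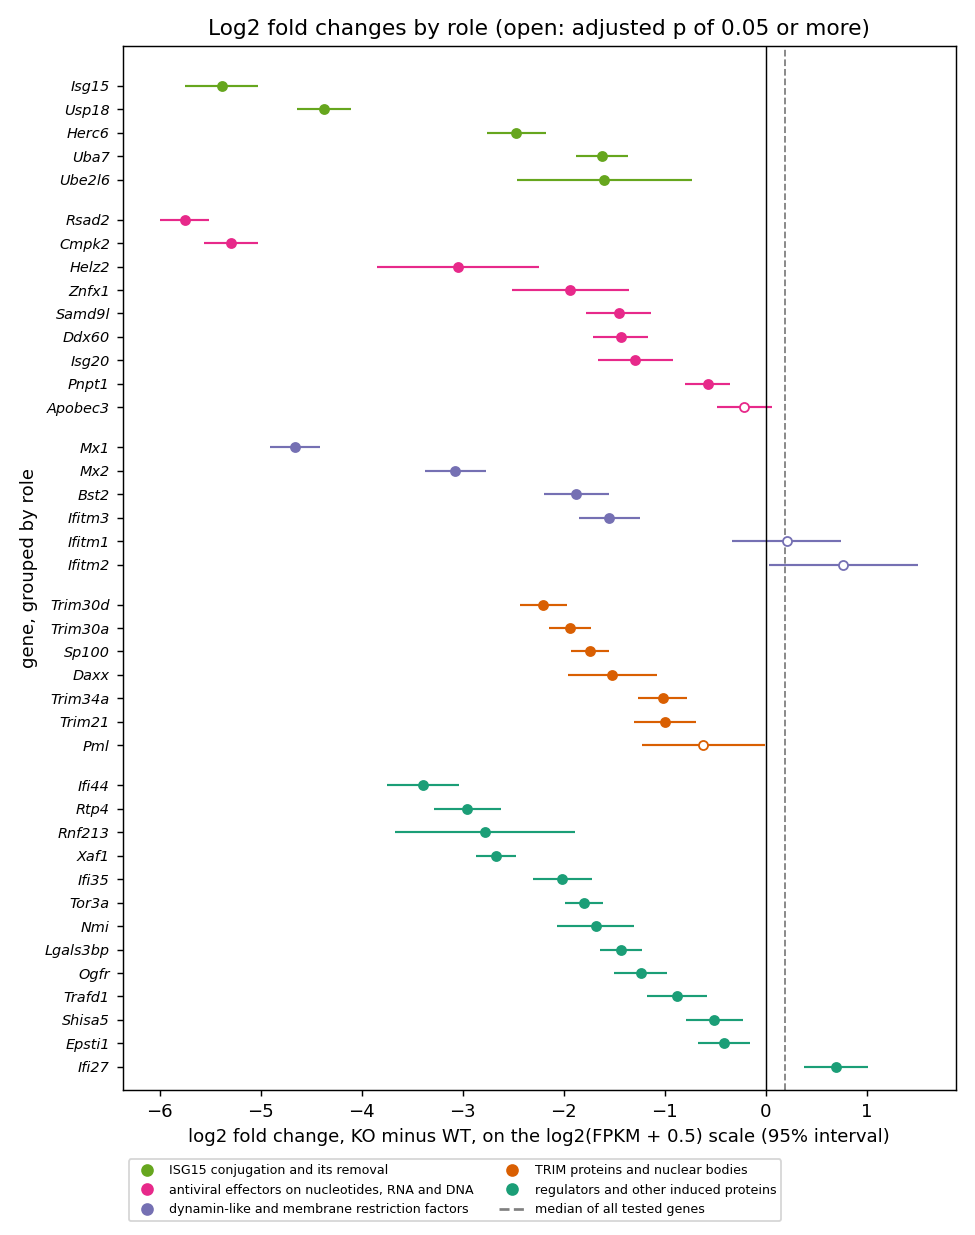
Log2 fold change, KO minus WT, with its 95% limma interval (x axis) for the 40 genes grouped by role (colour), with open symbols for the 4 genes that were not called and a dashed line at the median of all tested genes (0.19). In each class the falls span a wide range, from -5.75 for *Rsad2* to -0.21 for *Apobec3* among the effectors on nucleotides, RNA and DNA.

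The 6 dynamin-like and membrane proteins were split, with 4 lower and 2 not called. *Mx1* and *Mx2*, genes of the dynamin-like GTPase family, neighbour each other on chromosome 16. *Mx1* was at 27.5, 28.3 and 25.8 FPKM in the WT-labelled and 0.506, 0.701 and 0.585 FPKM in the KO-labelled libraries, which left 2.20% (log2 fold change -4.66, SE 0.10, adjusted p = 1.36e-06, limma). *Mx2* was at 7.16, 6.97 and 7.11 FPKM against 0.393, 0.293 and 0.534 FPKM, which left 5.74%. *Mx1* exceeded *Mx2* by 3.63 to 4.06 times in the WT-labelled and by 1.10 to 2.39 times in the KO-labelled libraries, where both were listed under 1 FPKM. The genes are similar in sequence, so reads may have been divided between them.

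*Bst2* encodes tetherin, which holds budding virions at the cell surface. It was at 397, 365 and 512 FPKM against 116, 108 and 119 FPKM, and although it fell 3.72-fold it stayed among the 3 most abundant of the 40 genes in the KO-labelled libraries. The ratio of *Isg15* to *Bst2* was 0.671 to 0.713 in the WT-labelled and 0.0548 to 0.0600 in the KO-labelled libraries, so these abundant transcripts changed very unequally. *Bst2* is also a marker of plasmacytoid dendritic cells. The list of 6 such markers, *Bst2* included, summed to 367 to 513 FPKM in the WT-labelled and 111 to 121 FPKM in the KO-labelled libraries, nearly all of it *Bst2* itself. Of the other 5, *Klk1* and *Ly6d* were at 0 in all 6 libraries, *Siglech* was at 0 in all but KO replicate 2 (0.0291 FPKM), *Ccr9* was at 0.0139 to 0.113 FPKM, and *Tcf4* was at 1.26 ± 0.581 against 2.49 ± 0.323 FPKM (SD, n = 3 each) and was not called.

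The 3 *Ifitm* genes lie within 54783 bases of each other on chromosome 7 and encode small membrane proteins that block the fusion of incoming virions. *Ifitm3* (chr7:141009586-141010770, minus strand, GRCm38) was at 585, 537 and 733 FPKM in the WT-labelled and 211, 199.5 and 216 FPKM in the KO-labelled libraries. It was the most abundant of the 40 genes in every WT-labelled library, and it fell to 33.8% (log2 fold change -1.55, SE 0.13, adjusted p = 0.000197, limma). *Ifitm2* (chr7:140954837-140955987, minus strand, GRCm38) was at 237, 109 and 258 FPKM against 321, 318 and 323 FPKM. Every KO-labelled library was above every WT-labelled library, but WT replicate 2 stood well below the others, and the log2 fold change of 0.77 was not called (SE 0.31, adjusted p = 0.0956, limma). *Ifitm3* over *Ifitm2* was 2.46, 4.92 and 2.84 in the WT-labelled and 0.659, 0.627 and 0.668 in the KO-labelled libraries, so the order of the pair was exchanged.

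The low *Ifitm2* value of WT replicate 2 coincided with a high value of an overlapping gene. *Gm45717* is annotated on the same strand across *Ifitm2*, and it was at 160.3 FPKM in WT replicate 2 but under 1 FPKM in the other 5 libraries. The sum of both was 238, 269 and 258 FPKM in the WT-labelled and 321, 318 and 323 FPKM in the KO-labelled libraries. Summed, the pair was called higher (log2 fold change 0.33, SE 0.08, adjusted p = 0.0181, limma), an alternative chosen after seeing the data. *Ifitm1* was low, with 1.59, 1.09 and 2.49 FPKM against 2.02, 1.85 and 2.09 FPKM, and the groups overlapped. Its log2 fold change was 0.21 (95% interval -0.33 to 0.75, adjusted p = 0.505, limma), and its sign turned under quantile normalization (-0.04). The 3 genes are alike in sequence, and how the quantification treated shared reads is not given in the sources used here.

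Of the 7 TRIM and nuclear body genes, 6 fell and *Pml* was not called, with a median log2 fold change of -1.52. The TRIM proteins are RING-type ubiquitin ligases. *Trim30d* was at 27.6, 28.8 and 27.4 FPKM against 5.30, 5.36 and 6.40 FPKM, the deepest fall of the class (log2 fold change -2.20, SE 0.10, adjusted p = 1.25e-05, limma). *Trim30a*, which restrains signalling to NF-kB, was at 54.8, 57.8 and 56.4 FPKM against 13.1, 14.8 and 15.2 FPKM (residual 25.5%). *Trim30a* fell somewhat less than *Trim30d*, with *Trim30a* over *Trim30d* at 1.99 to 2.06 in the WT-labelled and 2.38 to 2.76 in the KO-labelled libraries. Any part of their shared promoter stretch in these falls was not tested. *Trim21*, a cytosolic antibody receptor, and *Trim34a* each retained 47.0%, the highest share among the called genes of the class. The paralogs may share reads here as well, and a pseudogene (*Gm16464*, mean 3.71 FPKM) lies within *Trim30d* on the same strand.

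*Sp100*, *Daxx* and *Pml* encode proteins of PML nuclear bodies, which silence incoming viral DNA. *Sp100* was tightly measured, with 21.4, 21.3 and 21.9 FPKM against 5.77, 6.28 and 6.19 FPKM (residual 28.3%). *Daxx*, a histone chaperone, was at 22.4, 22.6 and 20.7 FPKM against 6.44, 6.02 and 10.05 FPKM (residual 34.3%). *Pml*, the scaffold of the bodies, was at 9.31, 9.40 and 5.47 FPKM against 5.85, 5.67 and 3.58 FPKM. Replicate 3 was the lowest library in both groups, and its WT-labelled value lay below 2 of the KO-labelled values. The log2 fold change of *Pml* was -0.62 (SE 0.26, adjusted p = 0.101, limma), and without both replicate 3 libraries it was called (-0.66, adjusted p = 0.00213, limma), an alternative added after seeing the data.

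The remaining 13 genes, regulators and other induced proteins, held 12 that fell and the 1 that rose. *Ifi44*, an induced cytoplasmic protein, was at 6.48, 8.15 and 7.73 FPKM against 0.152, 0.369 and 0.258 FPKM. It had the deepest fall of the class, with 3.48% left (log2 fold change -3.39, SE 0.15, adjusted p = 1.28e-05, limma), and on this scale the fall of a gene so low is understated, since the means differed by 28.7-fold. *Rtp4*, a chaperone of membrane receptors that binds viral RNA, was at 31.2, 27.8 and 37.6 FPKM against 3.35, 3.51 and 4.23 FPKM (residual 11.5%), with *Masp1* (mean 2.93 FPKM) on the opposite strand. *Xaf1*, an antagonist of the apoptosis inhibitor XIAP, was at 14.3, 14.2 and 14.1 FPKM against 1.85, 1.71 and 1.88 FPKM (residual 12.8%). *Rnf213*, a giant ubiquitin ligase that coats bacteria and lipid droplets, was at 83.0, 91.8 and 38.3 FPKM against 10.7, 11.8 and 6.25 FPKM (residual 13.5%). In all 4 genes the groups were clearly apart, although the replicate 3 libraries of *Rnf213* were well below the others.

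*Ifi35* and *Nmi*, partner proteins that modulate innate signalling, retained 23.9% and 28.5%. *Tor3a*, an ATPase of the endoplasmic reticulum, retained 28.0%. *Lgals3bp*, a secreted galectin ligand and the fourth most abundant of the genes in the WT-labelled libraries, was at 234, 224 and 201 FPKM against 84.6, 81.5 and 76.9 FPKM (residual 36.9%). *Ogfr*, the opioid growth factor receptor, retained 41.9%. These falls were all of more than 2-fold, and *Ogfr* was the mildest of them.

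Smaller falls were found for *Trafd1*, *Shisa5* and *Epsti1*. *Trafd1*, a feedback regulator of Toll-like receptor signalling, retained 53.7% (adjusted p = 0.002, limma). *Shisa5*, an endoplasmic reticulum protein linked to p53-dependent apoptosis, was at 106, 95.2 and 84.7 FPKM against 66.5, 73.8 and 60.0 FPKM (residual 70.1%, adjusted p = 0.0148, limma). *Epsti1* was at 15.6, 15.3 and 18.4 FPKM against 11.4, 11.8 and 13.4 FPKM, the smallest fall called among the 40 genes (log2 fold change -0.41, SE 0.11, adjusted p = 0.0248, limma). The groups did not overlap for any of the 3, but the call of *Shisa5* was lost without WT replicate 1 (adjusted p = 0.0515) or KO replicate 1 (0.0539), and that of *Epsti1* without WT replicate 1 (0.0514), KO replicate 1 (0.0940) or KO replicate 2 (0.0882).

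*Ifi27* (chr12:103434211-103440239, plus strand, GRCm38), which encodes a mitochondrial protein of the ISG12 family, ran the other way. It was at 29.5, 26.0 and 35.6 FPKM in the WT-labelled and 44.7, 49.8 and 53.2 FPKM in the KO-labelled libraries. Every KO-labelled library was above every WT-labelled one, and the level rose to 162% (log2 fold change 0.70, SE 0.13, adjusted p = 0.00698, limma). Across the alternative settings it stayed called in all 16 that could test it, from 0.48 to 0.81. It was the only one of the 40 genes called higher, where 27.1% of all tested genes were.

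The levels of the set as a whole were reordered. The 40 genes summed to 2817, 2582 and 3052 FPKM in the WT-labelled and to 1053, 1049.7 and 1073 FPKM in the KO-labelled libraries, or 0.854 to 0.922% and 0.333 to 0.344% of all FPKM. The 4 most abundant genes held 52.7 to 61.2% of the sum in the WT-labelled and 67.4 to 69.6% in the KO-labelled libraries. *Ifitm3*, *Bst2* and *Isg15* led in every WT-labelled library, whereas *Ifitm2*, *Ifitm3* and *Bst2* led in every KO-labelled library. By mean level *Isg15* went from rank 3 to rank 19, *Rsad2* from 6 to 34, *Cmpk2* from 9 to 36 and *Mx1* from 22 to 38. The level in the WT-labelled libraries was only weakly related to the fold change (Pearson r = -0.25 over 40 genes, a description across genes of the same libraries, which enter both measures).

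**Figure D4:**
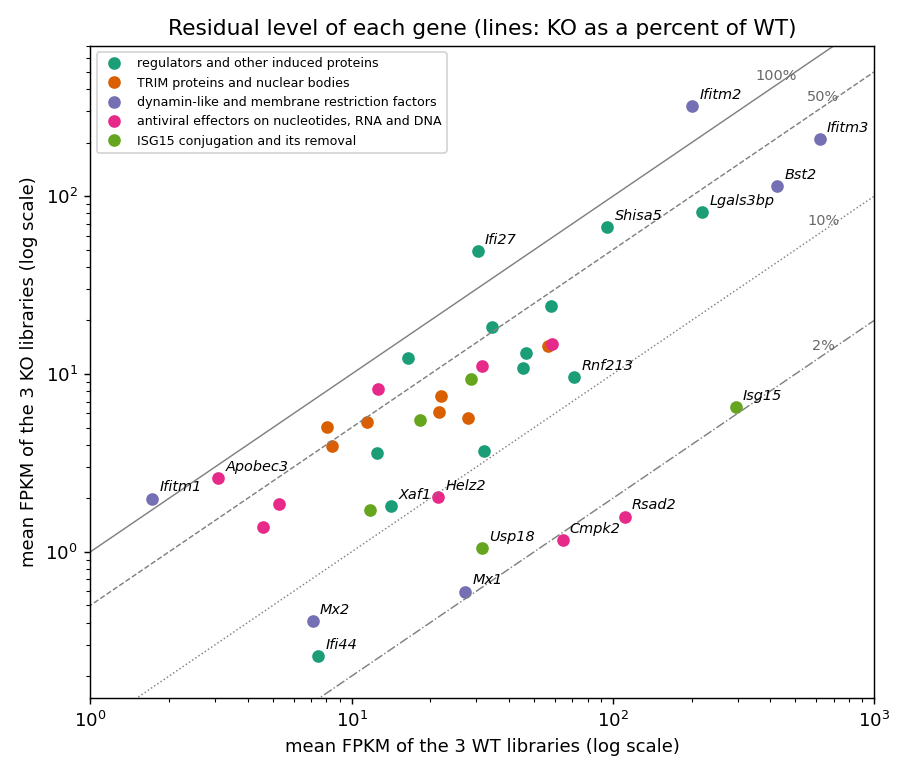
Mean FPKM of the 3 KO-labelled libraries (y axis) against that of the 3 WT-labelled libraries (x axis), both on log scales, for the 40 genes coloured by role, with lines at residual levels of 100, 50, 10 and 2%. *Isg15* and *Bst2*, at 295 and 425 FPKM in the WT-labelled libraries, ended at 6.49 and 114 FPKM.

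The medians of genes with and without the ISRE core in their window lay close together, which was not tested. Of the 13 genes with the core, 11 were lower, with a median log2 fold change of -1.43. Of the 21 genes with a window but no core, 19 were lower, with a median of -1.62. Of all tested genes, 10.5% were lower. The 6 genes without a window, from *Mx1* (-4.66) to *Ifi27* (0.70), are in neither median. Those with the core included the deepest fall, *Rsad2*, and also *Apobec3* and *Ifitm2*, which were not called. A core absent from these 300 bases says only that these letters are not in this window.

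Replicate 3 stood apart in both groups, and it did so along transcript length. The first principal component (70.8% of the variance over all tested genes) separated the groups, and the second (13.5%) set replicate 3 of each group apart. Over the 40 genes, the difference of WT replicate 3 from the mean of the other 2 WT-labelled libraries fell with the longest annotated transcript (Pearson r = -0.80, Spearman rho = -0.77), and so did that of KO replicate 3 (r = -0.51, rho = -0.45). Over all tested genes with a length, r was -0.31 and -0.084 and rho -0.49 and -0.27, each a description across genes of the same libraries. The 4 genes with transcripts of at least 6000 bases (*Helz2*, *Rnf213*, *Znfx1* and *Ddx60*) were lower in replicate 3 of both groups, by medians of -0.97 and -0.51 on the log2 scale. All 9 genes under 1500 bases, which include *Isg15*, *Bst2* and the *Ifitm* genes, were higher in WT replicate 3. Without both replicate 3 libraries, 36 genes were lower and 1 higher, and the median log2 fold change was -1.75.

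**Figure D5:**
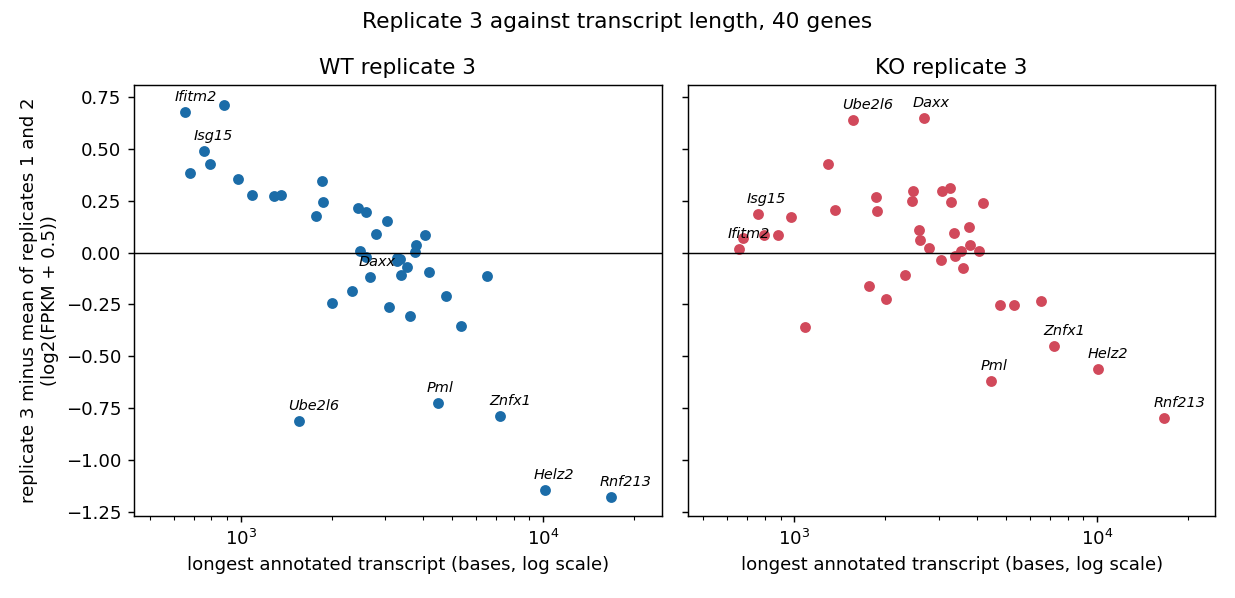
Difference of replicate 3 from the mean of replicates 1 and 2, in log2(FPKM + 0.5) (y axis), against the longest annotated transcript in bases (x axis, log scale) for the 40 genes, in the WT-labelled (left) and KO-labelled (right) libraries. The long gene *Rnf213* lies lowest in both panels (r = -0.80 and -0.51 over the 40 genes). *Helz2*, also long, comes next in the left panel and after *Pml* in the right.

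Some genes of interferon signalling were lower as well. Any part they had in the falls of the effectors was not tested. Of 22 genes of interferon signalling, 19 were tested, of which 8 fell, 2 rose and 9 were not called, where 10.5% of all tested genes fell and 27.1% rose. The median log2 fold change was -0.22. The 2 that rose were *Ifngr1*, a chain of the receptor for interferon gamma (log2 fold change 1.98, adjusted p = 0.000191, limma), and *Jak1*, a receptor-bound kinase (0.45, adjusted p = 0.00869, limma). *Irf7*, the factor that amplifies interferon production, was at 40.5, 41.6 and 41.9 FPKM against 2.55, 2.74 and 2.19 FPKM, which left 6.03%. *Stat2*, part of the complex that binds the ISRE, retained 13.9% (log2 fold change -2.67) and *Socs1*, an inhibitor of JAK kinases, 11.2% (-2.55). *Irf9*, the DNA-binding part of that complex, retained 78.4% (log2 fold change -0.33, adjusted p = 0.0273, limma). *Ifnb1* was listed at 0 in all libraries but WT replicate 3, where it was at 0.0740 FPKM, and it was not tested. The receptor chains *Ifnar1* (log2 fold change -0.11) and *Ifnar2* (0.09) were not called.

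Relatives of the effectors that were not themselves in the set moved much less. Of 53 such genes, 46 were tested, of which 10 fell, 10 rose and 26 were not called, against the same 10.5% and 27.1% over all tested genes. Their median log2 fold change was -0.01. None of them was called with a change of more than 4-fold. *Trim25*, a ubiquitin ligase that is both a target of ISG15 and a ligase for it, was at 64.3, 65.4 and 54.2 FPKM against 27.8, 27.4 and 23.9 FPKM, and it fell to 43.0% (log2 fold change -1.20, adjusted p = 0.000292, limma).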

How the data were processed

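The authors deposited FPKM per gene for 6 libraries (3 per group), each column titled as 1 sample. The submitters' processing notes name fastp 0.17.1, HISAT2 2.1.0, DESeq2 1.18.1 and R 3.4.3. The quantifier, genome build, annotation and strand setting are not given in the sources used here. Labels and methods name different RNA reagents, library kits and sequencers. Of 55335 identifiers, 55154 (99.7%) matched GENCODE M21 (GRCm38), the source of symbols, positions and lengths.

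The authors tested counts with DESeq2, whereas the deposited table holds FPKM. Between 37.3% and 40.4% of low values lay within 0.1 fragments of a whole number (20% by chance), so reads were not recovered and no count test was run. FPKM depends on each library's total, so large changes in abundant genes shift the rest. The fit used limma 3.58.1 (R 4.3.3; eBayes with trend, two-sided, no covariates) on log2(FPKM + 0.5). It took in the 13367 genes averaging 0.5 FPKM or more, with Benjamini-Hochberg adjustment over them, and genes were called at an adjusted p-value under 0.05. The procedure was tested on simulated data.

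The 40 genes, the related lists and the markers were chosen with earlier results of these data known. All 40 genes are named. Full statistics are given for the largest and smallest fall of each class and for any gene not lower. From related lists, called genes with an absolute log2 fold change above 2 are named (at most 5 per direction), plus *Stat2*, *Irf9*, *Irf7*, *Ifnb1* and *Trim25*. Some items of the related lists are not reported here. *Ifngr1*, *Jak1*, *Ifnar1*, *Ifnar2*, single markers and the genes overlapping an effector were named after their values were seen.

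Promoter windows came from RefSeq (GRCm38.p6). Other settings tried were pseudocounts (0.1 and 1), filters on low values, median-of-ratios scaling, TPM, quantile normalization, robust eBayes, a replicate block, the study's threshold and leaving out libraries.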

Additional observations from a re-analysis of the deposited data

How the results depend on the processing

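The count of 35 effectors lower in KO ranged from 32 to 36 without single libraries, and that of effectors higher from 1 to 2. Their median log2 fold change was -1.74 and -1.56 with pseudocounts of 0.1 and 1, -1.85 with median-of-ratios scaling, -1.78 with quantile normalization, -1.75 without both replicate 3 libraries and -1.77 to -1.63 without single libraries. Of the values of single effectors under alternatives, 617 kept direction and call, 10 gained a call, 6 lost it and 2 reversed, both for *Ifitm1* (-0.044 with quantile normalization, and -0.0069 to 0.45 without single libraries, negative without WT replicate 2). *Pml* gained a call with median-of-ratios scaling (-0.82, adjusted p = 0.0438, limma) and quantile normalization (-0.79, 0.0425), as did *Apobec3* (-0.39, 0.0414 and -0.45, 0.0329). *Pml* was also called without WT replicate 3 (-0.86, 0.0189) and *Ifitm2* without WT replicate 2 (0.37, 0.0286) or 3 (0.99, 0.0424). The cause was not tested.

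Median-of-ratios scaling moved the median of all genes from 0.19 to -0.00046 and the calls from 1408 lower and 3619 higher to 2215 and 2156. The interferon signalling list then had 1 gene higher and a median of -0.43, and the relatives 4 and -0.20. Relatives higher numbered 5 without the filter and 5 with quantile normalization, and 5 to 10 without single libraries. The all-gene median was 0.045 without the filter, 0.13 in genes of at least 5 FPKM (1756 higher) and 0.032 with quantile normalization. Same-numbered libraries did not all deviate together (r = 0.116, 0.0360 and 0.264), and not every sample correlated best with its own number. A replicate block gave 36 effectors lower and 1 higher, *Pml* being added (adjusted p = 0.00413, limma), and 1681 genes lower and 4253 higher.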
